A study of Mus musculus with 2 samples.

Results

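The 10 Kupffer cell (KC) identity genes Marco, Clec4f, Cd5l, Vsig4, Timd4, Cd163, Adgre1, Csf1r, Cd68 and Spic were chosen by symbol as markers of KCs, the resident macrophages of the liver, and all 10 were found among the 19465 genes measured. Spatial transcriptomics (ST) was performed on formalin-fixed, paraffin-embedded liver with the 10x Visium platform, in which probe pairs hybridised to a section are captured, with a unique molecular identifier (UMI), on barcoded spots that each cover several cells. Each genotype was represented by 1 section of 1 mouse, and both sections were on the same slide. AEG-1fl/fl mice carry floxed alleles of AEG-1, the product of Mtdh, and were developed on the C57BL/6/J background. AEG-1ΔMAC mice carry the same floxed alleles and a LysM/Cre allele, so that AEG-1 is removed in cells that use the lysozyme 2 promoter, which include neutrophils and other macrophages as well as KCs. According to the labels both mice were 27 weeks old and had received high fat/high sugar feed from 7 weeks of age, for 20 weeks. The study, however, describes these sections as coming from littermates fed the control diet, so the diet is uncertain, and their sex is not given in the sources used here. With 1 library per genotype there was no replicate and no test, and intervals given below are 95% intervals that cover counting error only.

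KCs line the liver sinusoids, where they take up bacteria, particles, aged red blood cells and dying cells from portal blood. Each step relies on its own receptors: scavenger receptors and lectins bind microbes, complement receptors bind opsonised particles, phosphatidylserine receptors bind dying cells, and the haptoglobin-hemoglobin receptor clears hemoglobin. KCs depend on signalling through the CSF1 receptor, and in mouse liver they are known to be denser toward the periportal (PP, zone 1) end of the lobule than toward the pericentral (PC, zone 3) end.

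After filtering, 2140 AEG-1ΔMAC spots with 45453286 UMIs and 2540 AEG-1fl/fl spots with 50322850 UMIs remained, with medians of 20929.5 and 18285 UMIs per spot. The libraries had 1782 spot barcodes in common, which are positions on the capture array and not shared cells. Levels are given as UMIs scaled to counts per 1000000 UMIs of the library (CPM), and because probes differ in how well they bind, a level was compared between sections and not between genes. Mtdh had 66.3 CPM in the AEG-1ΔMAC section and 60.2 CPM in AEG-1fl/fl, but most RNA under a spot comes from hepatocytes, in which the gene is intact, so this does not check the deletion. Lyz2, which drives the Cre, had only 25 and 41 UMIs in the whole sections. The median log2 ratio (AEG-1ΔMAC over AEG-1fl/fl) over 11178 genes (those that averaged 1 CPM or more) was 0.13, and other scalings shifted every ratio by -0.12 to -0.14.

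The promoter windows of the 2 genes that were at least 2-fold apart between the sections, Marco and Cd163, are shown because the results turn on these genes. The sequences are from RefSeq (GRCm38.p6), at chr1:120504975-120505274 on the minus strand for Marco and at chr6:124304401-124304700 on the plus strand for Cd163. Capitals mark GAGGAA, the core bound by the macrophage factor PU.1, in Marco, and AGAACA or its reverse TGTTCT, the hexamer bound by the glucocorticoid receptor, in Cd163.
Marco: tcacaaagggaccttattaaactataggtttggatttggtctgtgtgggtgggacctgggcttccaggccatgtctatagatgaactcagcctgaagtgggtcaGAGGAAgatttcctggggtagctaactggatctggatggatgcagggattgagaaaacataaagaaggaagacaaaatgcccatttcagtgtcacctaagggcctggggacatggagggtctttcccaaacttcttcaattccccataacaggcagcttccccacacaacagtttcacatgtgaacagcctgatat
Cd163: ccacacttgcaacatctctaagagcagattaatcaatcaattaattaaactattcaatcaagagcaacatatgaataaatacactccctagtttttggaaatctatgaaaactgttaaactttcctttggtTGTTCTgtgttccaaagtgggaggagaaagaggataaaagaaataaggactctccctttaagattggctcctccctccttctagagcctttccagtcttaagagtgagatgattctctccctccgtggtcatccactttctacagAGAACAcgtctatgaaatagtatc
Of the members, 8 promoter windows were searched on both strands (the table had none for Adgre1, and that of Csf1r was not used), for 3 motifs that did not overlap, of which those marked above are given. GAGGAA or TTCCTC was in 4 of the 8 (Marco, Cd5l, Vsig4 and Cd68), against 28.3% of 32851 promoters of the same length. AGAACA or TGTTCT was in 2 of the 8 (Clec4f and Cd163), against 19.0%. These matches describe the letters in the window and are not binding sites.

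To ask whether KC genes differed between the genotypes, each member was counted over the whole section. Marco was lower and Cd163 higher in AEG-1ΔMAC, each by more than 2-fold, while the other 8 members had log2 ratios from -0.45 to 0.24. Marco (chromosome 1, 120474538 to 120505024, minus strand, GRCm38), a class A scavenger receptor that binds bacteria and particles, had 632 UMIs in the AEG-1ΔMAC section and 1816 UMIs in AEG-1fl/fl. This was 13.9 CPM (12.8 to 15.03) against 36.1 CPM (34.4 to 37.8), giving a log2 ratio of -1.38 (-1.51 to -1.24), or 2.60-fold lower. It ranked 89 from the lowest of the 11178 genes compared. Cd163 (chromosome 6, 124304656 to 124330527, plus strand), the scavenger receptor for haptoglobin-hemoglobin complexes, went the other way with 1266 UMIs and 27.9 CPM (26.3 to 29.4) in AEG-1ΔMAC against 517 UMIs and 10.3 CPM (9.41 to 11.2) in AEG-1fl/fl. Its log2 ratio was 1.44 (1.29 to 1.59), or 2.71-fold higher, and it ranked 78 from the highest. The 2 scavenger receptors of the same cell type thus stood at opposite ends of the members. Of the members 1 of 10 was at least 2-fold lower, against 1.55% of all genes compared, and 1 of 10 was at least 2-fold higher, against 1.74%.

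The other receptors of KCs lay within a narrow range. Clec4f, a C-type lectin restricted to KCs in the mouse, had 197.8 CPM in the AEG-1ΔMAC section and 191.2 CPM in AEG-1fl/fl, giving a log2 ratio of 0.05 (0.01 to 0.09) whose sign turned under the 3 other scalings. Vsig4, a complement receptor for opsonised particles, had 50.7 and 53.4 CPM and a log2 ratio of -0.07 (-0.16 to 0.01). Timd4, a phosphatidylserine receptor of long-lived resident KCs, had 19.7 and 18.9 CPM and a log2 ratio of 0.07 (-0.07 to 0.20), with a sign that also turned under the 3 other scalings. For Timd4 no difference was detectable at this depth. Vsig4, whose interval included 0, was at -0.20 to -0.22 under the 3 other scalings, a shift larger than its counting error, so that its difference rests on the scaling. On CPM both intervals exclude a change as large as 1.5-fold in either direction. Cd5l, a secreted scavenger-family protein made by KCs, had 278.3 and 241.1 CPM, giving a log2 ratio of 0.21 (0.17 to 0.24), or 0.08 above the median of all genes. The 3 most KC-restricted genes with many UMIs, Clec4f, Cd5l and Vsig4, summed to 526.9 CPM in the AEG-1ΔMAC section and 485.7 CPM in AEG-1fl/fl, giving a log2 ratio of 0.12 (0.09 to 0.14). This was close to the median of all genes (0.13) and no larger than the shift under the other scalings (-0.12 to -0.14). The sign of the sum therefore rests on the scaling. In spots, fewer KCs and less RNA per KC cannot be told apart.

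Among the genes shared with other macrophages, differences were also small. Csf1r, the receptor that KCs need for survival, had 43.4 CPM in the AEG-1ΔMAC section and 36.7 CPM in AEG-1fl/fl, giving a log2 ratio of 0.24 (0.15 to 0.33). Cd68, a lysosomal membrane protein of phagocytes, had 28.6 and 31.6 CPM and a log2 ratio of -0.14 (-0.25 to -0.04). Under the 3 other scalings Csf1r was at 0.10 to 0.12 and Cd68 at -0.27 to -0.29. Both lie outside these intervals, so the size of each difference rests on the scaling. Adgre1, which encodes the macrophage antigen F4/80, had 268 and 354 UMIs, or 5.90 and 7.03 CPM, and a log2 ratio of -0.25 (-0.49 to -0.02). Spic, a transcription factor of iron-recycling macrophages, was the least abundant in UMIs, with 172 against 260 UMIs (3.78 and 5.17 CPM) and a log2 ratio of -0.45 (-0.74 to -0.17). Counting any interval away from 0, 4 of 10 members were lower, against 12.9% of all genes, and 4 of 10 were higher, against 46.4%. The median of the members was -0.01, beside 0.13 for all genes. Apart from Clec4f, which lies on chromosome 6 with Cd163, and Cd68 and Timd4, both on chromosome 11, the members lie on different chromosomes (Cd5l on 3, Spic on 10, Adgre1 on 17, Csf1r on 18, Vsig4 on X). The plot of levels shows both sections side by side for each gene.

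**Figure D1:**
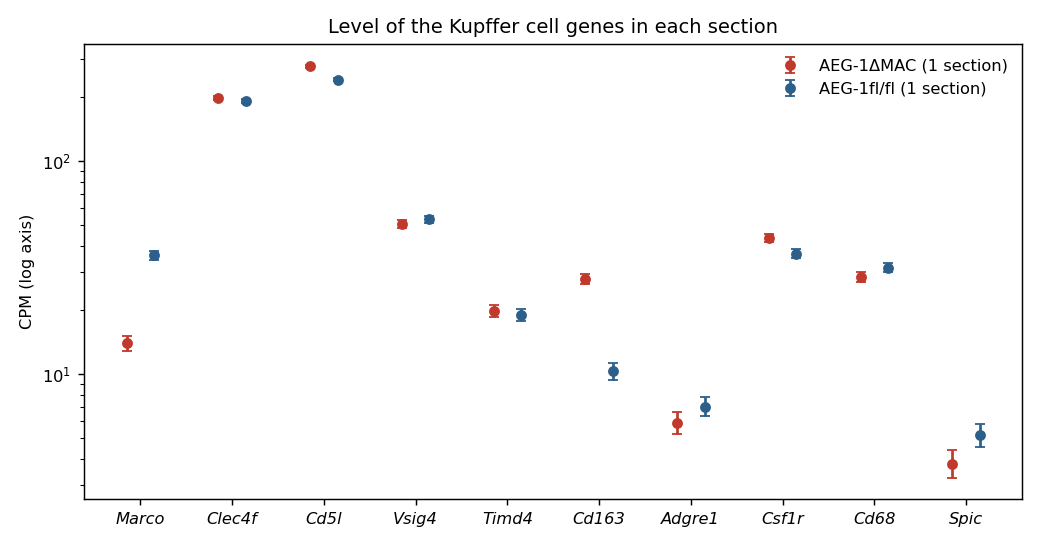
Level of each Kupffer cell gene (CPM, log axis) in the AEG-1ΔMAC section (red) and the AEG-1fl/fl section (blue), with bars for the exact Poisson 95% interval. The 2 points lie far apart for Marco (13.9 against 36.1 CPM) and, in the other direction, for Cd163 (27.9 against 10.3 CPM), and close together for the other genes.

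The share of spots holding a gene was then compared at equal depth, after each spot was thinned to 10000 UMIs, which left out 26 AEG-1ΔMAC and 106 AEG-1fl/fl spots of lower depth. Marco was detected, by at least 1 UMI, in 273 of 2114 AEG-1ΔMAC spots, or 12.9% (exact binomial interval 11.5% to 14.4%), and in 693 of 2434 AEG-1fl/fl spots, or 28.5% (26.7% to 30.3%). Without thinning the shares were 21.8% and 44.5%. Spots with several UMIs of Marco were also fewer, since 1.84% of AEG-1ΔMAC spots and 6.0% of spots in AEG-1fl/fl had 2 or more, and the highest spot had 6 and 10 UMIs. Cd163 was found in 23.8% (22.0% to 25.7%) of AEG-1ΔMAC spots and in 9.57% (8.43% to 10.8%) of AEG-1fl/fl spots, or 42.1% and 17.5% unthinned.

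The shares of the other members differed less. Clec4f was in 80.7% and 80.6% of spots in the AEG-1ΔMAC section and AEG-1fl/fl, so most spots in both sections held at least some KC RNA. The shares were 89.6% and 86.8% for Cd5l, 39.6% and 40.3% for Vsig4, 17.9% and 17.5% for Timd4, and 35.0% and 29.9% for Csf1r. They were 24.8% and 26.7% for Cd68, 6.05% and 6.82% for Adgre1, and 3.78% and 5.71% for Spic. Unthinned, they ran from 7.43% for Spic to 97.1% for Cd5l in AEG-1ΔMAC, and from 9.65% to 94.6% in AEG-1fl/fl. As a background, 8 genes of pancreas, brain, eye, heart and brown fat were found in 0 to 0.14% of AEG-1ΔMAC spots and 0 to 0.37% of AEG-1fl/fl spots at the same depth. Taking 3 counts as the limit that a count of 0 allows, this is a share of up to 0.14% and 0.12%, respectively, and the exact binomial upper limits are 0.17% and 0.15%.

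Counts of some members varied over spots more than random sampling at 1 depth gives, for which the variance over the mean is near 1. This ratio was 1.30 in the AEG-1ΔMAC section and 1.43 in AEG-1fl/fl for Marco, 1.47 and 1.46 for Clec4f, and 1.61 and 1.55 for Cd5l. The other members lay from 1.01 to 1.16 in the AEG-1ΔMAC section and from 0.97 to 1.10 in AEG-1fl/fl.

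To separate the amount of Marco RNA from the amount of other KC RNA, UMIs of each member were counted per 100 UMIs of Clec4f, Cd5l and Vsig4 together. Marco had 2.64 UMIs (2.44 to 2.86) per 100 in the AEG-1ΔMAC section and 7.43 UMIs (7.08 to 7.79) per 100 in AEG-1fl/fl, giving a log2 ratio of -1.49 (-1.63 to -1.36), or 2.81-fold lower. Against Clec4f alone the log2 ratio was -1.43, and against all 9 other members it was -1.52. Marco was therefore lower also relative to the other KC genes, and no scaling between the libraries enters this ratio. Cd163 had 5.29 UMIs per 100 in the AEG-1ΔMAC section and 2.12 in AEG-1fl/fl, giving a log2 ratio of 1.32 (1.17 to 1.47). The remaining members were at -0.05 (-0.19 to 0.08) for Timd4, 0.12 (0.03 to 0.22) for Csf1r, -0.26 (-0.37 to -0.15) for Cd68, -0.37 (-0.61 to -0.14) for Adgre1 and -0.57 (-0.85 to -0.28) for Spic.

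**Figure D2:**
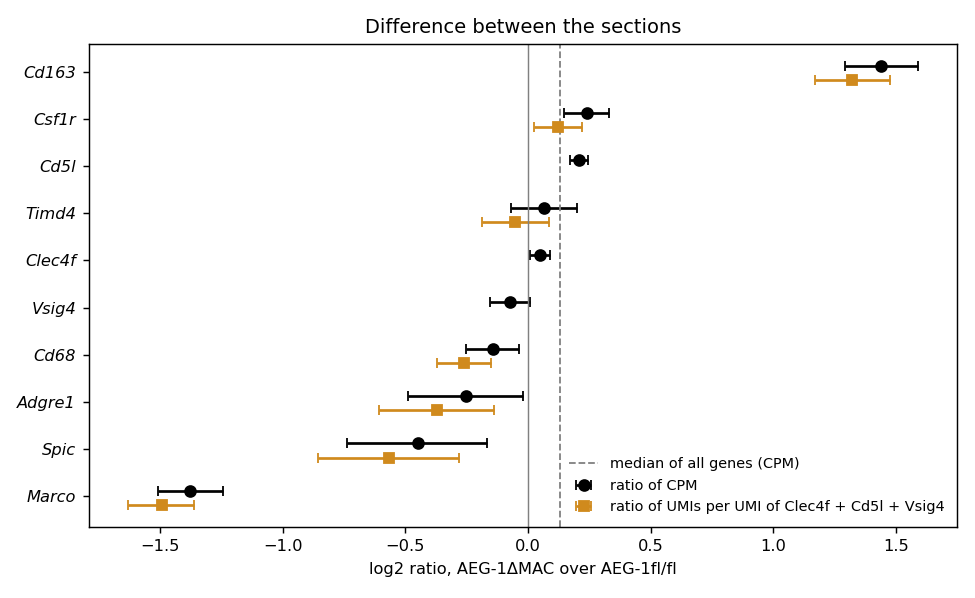
Log2 ratio between the sections (AEG-1ΔMAC over AEG-1fl/fl) for each gene from CPM (black) and from UMIs per UMI of Clec4f, Cd5l and Vsig4 together (orange, not drawn for those 3 genes), with bars for the exact 95% interval and a dashed line at the median of all genes (0.13). Cd163 lies at the right end and Marco at the left end on both scales, and the other 8 genes lie between -0.57 and 0.24.

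Spots were also grouped by how many UMIs of Clec4f, Cd5l and Vsig4 they held at 10000 UMIs per spot. The mean of Marco increased from 0.062 UMIs per spot (0.017 to 0.158) in the 65 AEG-1ΔMAC spots with 0 such UMIs to 0.244 (0.202 to 0.292) in the 484 spots with 8 or more. In AEG-1fl/fl it went from 0.189 (0.103 to 0.317) in 74 spots to 0.678 (0.603 to 0.759) in 444 spots. Marco was found in 4.62% and 18.9% of the spots with none of these KC UMIs after thinning, from 4 and 14 UMIs of Marco. In those spots Csf1r still averaged 0.277 and 0.162 UMIs per spot, and Cd163 0.123 and 0.041, in AEG-1ΔMAC and AEG-1fl/fl. Because thinning removes UMIs and other KC genes were present, these spots cannot show whether Marco occurs without other KC RNA. The AEG-1fl/fl mean was above the AEG-1ΔMAC mean in every one of the 8 spot groups. When the spots of both sections were given the same mix of zone parts and KC UMIs, the log2 ratio of Marco was -1.32, beside -1.29 for the thinned spots without this step, and Marco was lower in AEG-1ΔMAC in 24 of 24 combinations.

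**Figure D3:**
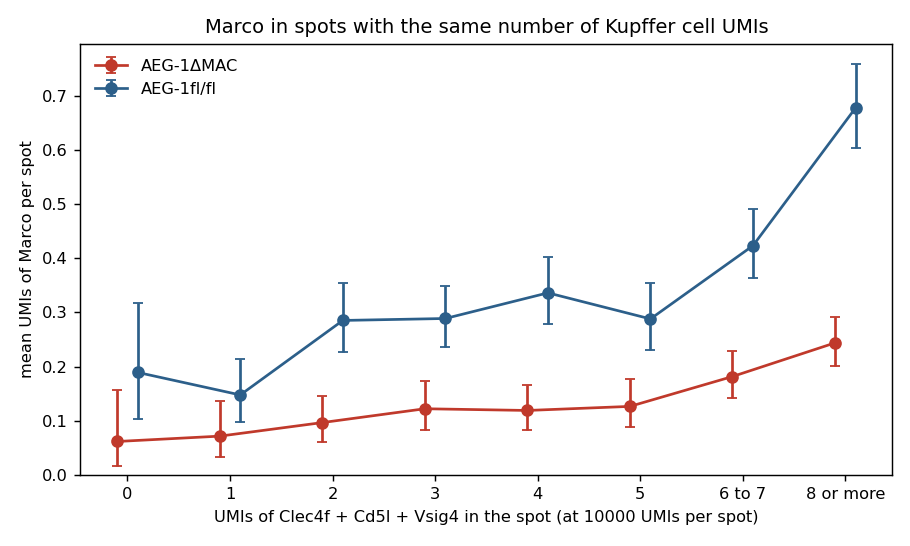
Mean UMIs of Marco per spot (vertical axis) in spots with the same number of UMIs of Clec4f, Cd5l and Vsig4 (horizontal axis), at 10000 UMIs per spot, in AEG-1ΔMAC (red) and AEG-1fl/fl (blue), with exact Poisson 95% intervals. Both lines are higher at the right end, and the AEG-1fl/fl line lies above the AEG-1ΔMAC line throughout, at 0.678 against 0.244 UMIs in spots with 8 or more.

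Most other members also had more UMIs in spots rich in KC RNA. Between spots with 8 or more of these UMIs and spots with 0 or 1, Marco differed by 3.58-fold (2.02 to 6.93) in the AEG-1ΔMAC section and 4.25-fold (3.06 to 6.04) in AEG-1fl/fl. Csf1r differed by 3.11-fold and 2.78-fold, Timd4 by 3.27-fold and 2.37-fold, and Cd68 by 2.25-fold and 3.07-fold. For Cd163 the difference was 3.29-fold (2.19 to 5.16) in the AEG-1ΔMAC section and 1.74-fold (1.03 to 3.04) in AEG-1fl/fl, intervals that overlap. The least abundant members were less certain: Adgre1 differed by 1.58-fold (0.776 to 3.54) and 2.72-fold (1.36 to 6.04), and Spic by 7.10-fold (1.83 to 60.9) and 1.93-fold (0.992 to 4.04), so that the interval of Adgre1 in AEG-1ΔMAC and that of Spic in AEG-1fl/fl included no difference. In the tenth of spots richest in KC UMIs, Marco was at 31.3 CPM (26.2 to 37.1) in the AEG-1ΔMAC section and 87.4 CPM (78.8 to 96.7) in AEG-1fl/fl, giving a log2 ratio of -1.48 (-1.78 to -1.19). Of these spots, the PP part held 49.5% and 53.2% and the PC part 17.3% and 10.6%.

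Zonation was examined by ranking the spots of each section from the PP to the PC end on hepatocyte markers, none of them a KC gene, and dividing them into 3 equal parts. Marco was the most zoned of the members in both sections. Its level fell along the parts from 20.1 through 12.9 to 8.73 CPM in AEG-1ΔMAC, and from 51.4 through 36.6 to 20.0 CPM in AEG-1fl/fl. The log2 ratio of the PC part over the PP part was -1.20 (-1.51 to -0.90) in the AEG-1ΔMAC section and -1.36 (-1.55 to -1.17) in AEG-1fl/fl, and 1.74% and 0.796% of all genes were zoned toward the PP part at least as far. Between the sections Marco was lower in each part, with log2 ratios of -1.36 (-1.55 to -1.17), -1.51 (-1.74 to -1.27) and -1.20 (-1.50 to -0.90) in the PP, middle and PC parts. The lowest level of AEG-1fl/fl, in its PC part, was about that of the PP part of AEG-1ΔMAC, its highest.

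All 10 members were lower in the PC part than in the PP part of both sections, with intervals below 0 for all 10 in AEG-1fl/fl and for 9 in AEG-1ΔMAC, where Adgre1 was at -0.36 (-0.82 to 0.10). The shares of all genes that were lower or had such intervals are not given here, so these counts have no background. The members' median was -0.39 in the AEG-1ΔMAC section and -0.70 in AEG-1fl/fl, beside 0.06 for all genes in both. At least 1.5-fold higher in the PP part were 2 of 10 members in AEG-1ΔMAC (Marco and Spic), against 6.15% of all genes, and 8 of 10 in AEG-1fl/fl, against 4.71%. Spic came second to Marco at -0.91 (-1.53 to -0.32) and -1.16 (-1.68 to -0.66). Cd163 had the smallest values, at -0.21 (-0.42 to -0.01) and -0.55 (-0.88 to -0.23), but in AEG-1fl/fl Adgre1 was level with it, at -0.56 (-0.96 to -0.17). Between the outer 10% of spots at each end Cd163 was not the least zoned in either section.

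The decrease toward the PC part was smaller in AEG-1ΔMAC than in AEG-1fl/fl for every member, although for Marco and several others the intervals overlap. For Clec4f the log2 ratio was -0.37 (-0.45 to -0.29) against -0.65 (-0.72 to -0.57), for Cd5l -0.37 (-0.44 to -0.31) against -0.63 (-0.70 to -0.56), and for Cd68 -0.32 (-0.53 to -0.12) against -0.81 (-0.997 to -0.62). For Csf1r it was -0.49 (-0.65 to -0.32) against -0.86 (-1.03 to -0.68), and in these 4 genes the intervals do not overlap. Vsig4 was at -0.41 and -0.65, and Timd4 at -0.46 and -0.75. Compared part by part on CPM, Cd5l was higher in AEG-1ΔMAC by 0.12 (0.06 to 0.18) in the PP part and by 0.37 (0.30 to 0.44) in the PC part, while Clec4f was at -0.07 (-0.14 to -0.00) and 0.20 (0.12 to 0.29). Cd163 was at 1.28 (1.03 to 1.53) and 1.62 (1.33 to 1.92). The other scalings, which shifted whole-section ratios by -0.12 to -0.14, were not applied by part. The PP value of Cd5l is no larger than that shift. When the spots were ranked by landmark genes in place of the markers, the decrease was again smaller in AEG-1ΔMAC for the 9 other members but not for Marco, at -1.21 against -1.17. Between the outer 10% of spots at each end it was larger in AEG-1ΔMAC for Marco (-1.90 against -1.50) and Spic (-1.82 against -1.23). The PC markers Cyp2e1, Cyp1a2 and Oat were all higher in AEG-1ΔMAC, summing to 8543 against 3498 CPM, and as spots were ranked within each section, the parts need not cover the same positions, whose part in this result was not tested.

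**Figure D4:**
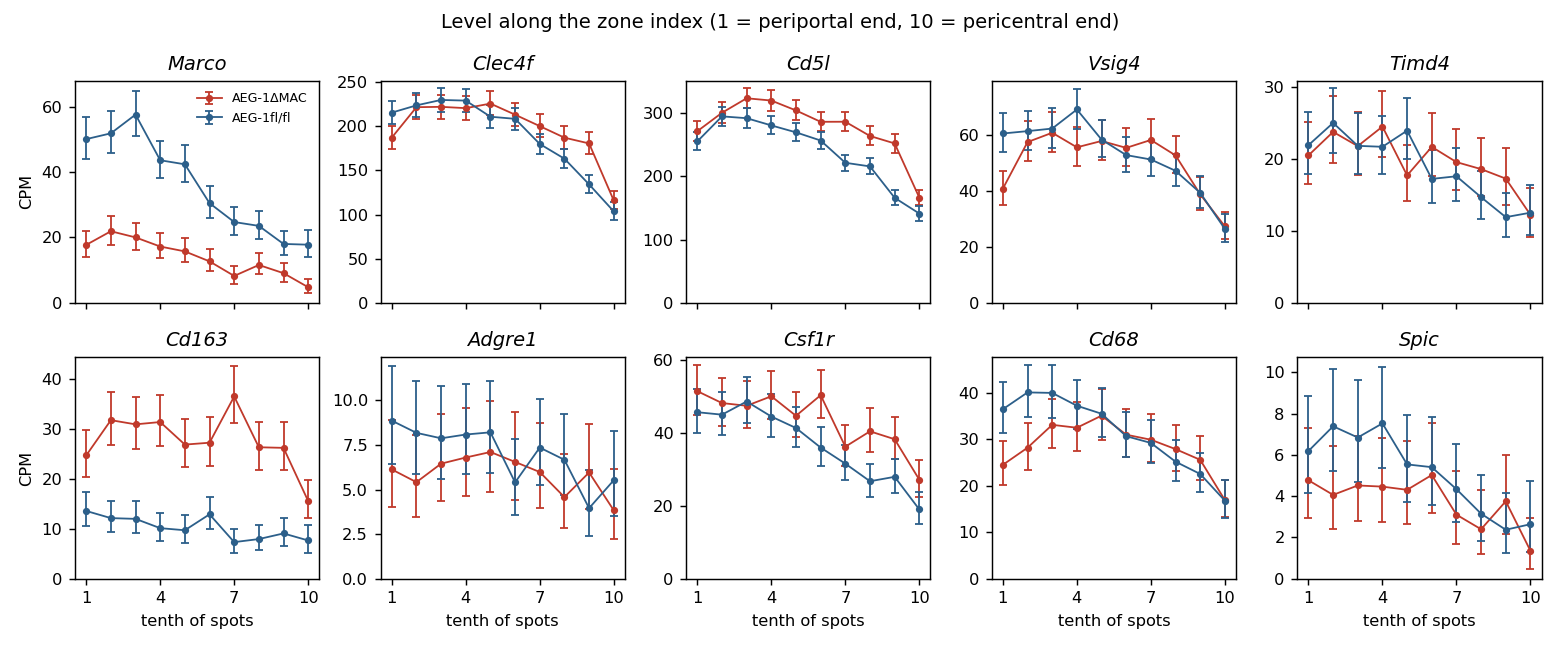
Level of each gene (CPM, each panel with its own linear axis from 0) in 10 equal groups of spots along the zone index, from the periportal end (1) to the pericentral end (10), in AEG-1ΔMAC (red) and AEG-1fl/fl (blue), with exact Poisson 95% intervals. Marco falls from 50.1 to 17.8 CPM in AEG-1fl/fl and from 17.7 to 4.75 CPM in AEG-1ΔMAC between the end groups, while Cd163 stays higher in AEG-1ΔMAC in every group.

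The zonation of Marco was larger than that of the KC RNA around it. Per 100 UMIs of Clec4f, Cd5l and Vsig4, Marco went from 3.54 in the PP part through 2.24 to 2.0 in the PC part of AEG-1ΔMAC, and from 9.11 through 6.95 to 5.52 in AEG-1fl/fl. The log2 ratio of PC over PP on this scale was -0.83 (-1.14 to -0.52) and -0.72 (-0.92 to -0.53). Csf1r, at -0.22 (-0.40 to -0.04), and Spic, at -0.52 (-1.04 to -0.02), had intervals below 0 in AEG-1fl/fl but not in AEG-1ΔMAC, at -0.11 (-0.28 to 0.06) and -0.53 (-1.15 to 0.06). For Timd4, Cd163, Adgre1 and Cd68 the interval included 0 in both sections, with values from -0.17 to 0.16. Of the members outside the denominator, Marco was the only one with an interval below 0 in both sections.

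Co-variation of Marco with the other members was measured over spots thinned to 10000 UMIs, as Spearman's correlation, which is given as a description because spots of a section share a library and neighbouring spots share tissue. The correlations were weak, with a median over the 9 pairs of 0.058 in AEG-1ΔMAC (2114 spots) and 0.064 in AEG-1fl/fl (2434 spots). Marco had its highest values with Cd5l, at 0.13 and 0.16, and with Clec4f, at 0.11 and 0.13, and its lowest with Adgre1, at -0.00 and 0.01. With the sum of Clec4f, Cd5l and Vsig4 the values were 0.14 and 0.18. For comparison, the highest pair among the 45 was Clec4f with Cd5l, at 0.29 in both sections, and the 36 pairs without Marco had medians of 0.057 and 0.055. Marco with Cd163, the 2 genes that differed most between the sections, were at 0.05 and 0.03. Averaged within the zone parts, the median over the 9 pairs was 0.054 and 0.042. Counts per spot are low, which limits any such correlation, and at 5000 UMIs Marco with Clec4f was at 0.07 and 0.06.

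Spots with UMIs of both genes were a little more common than the product of the separate shares. Marco and Timd4 were found together in 69 AEG-1ΔMAC spots, where the product gives 48.9, and in 143 AEG-1fl/fl spots, where it gives 121.0. Marco and Spic shared 14 spots against 10.3, and 60 spots against 39.6. Marco and Adgre1 shared 16 spots against 16.5, and 49 against 47.3.

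**Figure D5:**
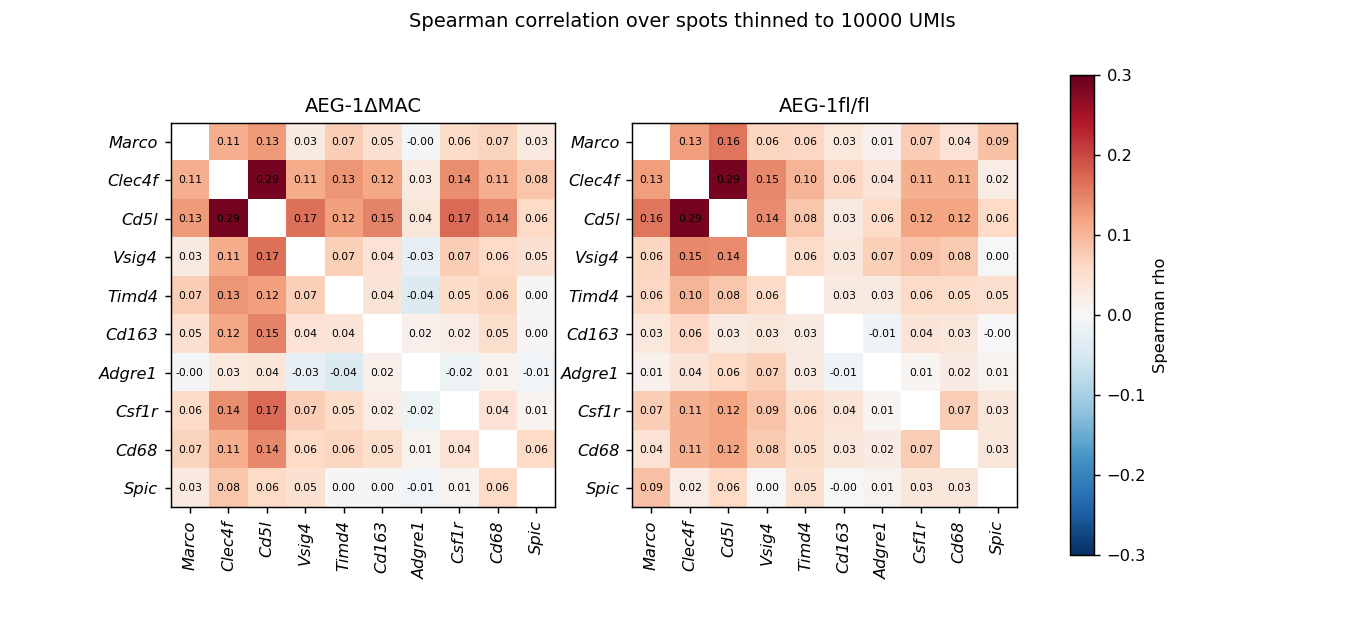
Spearman correlation between each pair of members over spots thinned to 10000 UMIs, in AEG-1ΔMAC (left, 2114 spots) and AEG-1fl/fl (right, 2434 spots), with colour from -0.3 (blue) to 0.3 (red) and the value printed in each cell. The darkest cell in both panels is Clec4f with Cd5l (0.29), and the row of Marco is palest at Adgre1 (-0.00 and 0.01).

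The 5 genes whose counts over spots were most like those of Marco were listed in each section, among 4676 genes that averaged 20 CPM or more. In AEG-1ΔMAC they were Cd5l (0.13), Alb (0.11), the lysosomal protease gene Lgmn (0.11), Clec4f (0.11) and the actin-binding Tmsb4x (0.10). In AEG-1fl/fl they were Mup20 (0.23), Mup3 (0.21), Cyp2f2 (0.21), Tmsb4x (0.21) and the hemopexin gene Hpx (0.19). In AEG-1ΔMAC, Mup20, Mup3, Cyp2f2 and Hpx were at 0.10, 0.06, 0.10 and 0.09. In AEG-1fl/fl, Cd5l, Alb, Lgmn and Clec4f were at 0.16, 0.045, 0.11 and 0.13. Several genes thus missed the other list narrowly, and Marco had fewer UMIs in AEG-1ΔMAC. Whether its partners differ between the sections was not tested. Alb, Hpx, Cyp2f2 and the Mup genes are expressed by hepatocytes, Cyp2f2 is one of the PP markers of the zone index, and the Mup genes belong to a family of near-identical copies, so their values are uncertain. Cd5l ranked 9 and Clec4f 15 in AEG-1fl/fl, and the median over all 4676 genes was -0.00 in the AEG-1ΔMAC section and -0.01 in AEG-1fl/fl. All 5 genes of the AEG-1fl/fl list and all 5 of the AEG-1ΔMAC list were, like Marco, lower in the PC part than in the PP part. Because these genes were selected for following Marco, itself zoned, over the same spots, this direction is not separate from the selection.

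Further KC genes were then examined, from a list of 16 of which 15 were measured and compared. Their median log2 ratio was 0.20, beside the 0.13 of all genes. By their intervals 11 were higher and 2 lower, against 46.4% and 12.9% of all genes. Complement C1q genes, which macrophages make, were at 0.20 (C1qa), 0.07 (C1qb) and 0.15 (C1qc). The lowest of the list was Hmox1, the heme-degrading oxygenase, with 13.2 CPM in the AEG-1ΔMAC section and 22.0 CPM in AEG-1fl/fl and a log2 ratio of -0.73 (-0.88 to -0.59). The list was less zoned than the members, with a median log2 ratio of PC over PP of -0.13 (AEG-1ΔMAC) and -0.40 (AEG-1fl/fl). The C1q genes were lower in the PC part of both sections. C6, also listed, was higher there, at 1.17 (1.11 to 1.22) and 0.64 (0.59 to 0.70). Whether RNA of the listed genes came from KCs was not tested. The 11 higher genes therefore need not describe KCs alone. Over spots, Cd163 had correlations of 0.16 and 0.06 with the sum of Clec4f, Cd5l and Vsig4. Fabp5, a fatty acid-binding protein that the study used as a KC marker, was at 33.3 against 118.8 CPM, with the log2 ratio at -1.84 (-1.92 to -1.75). Unlike the members, it was not lower in the PC part, with a log2 ratio of PC over PP of 0.16 (-0.03 to 0.35) and 0.44 (0.35 to 0.53), and its correlation with the sum of the 3 KC genes was -0.03 and -0.11.

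Of the 5 class A scavenger receptors, Marco was the only one at least 2-fold apart. Msr1, its relative on macrophages, was at -0.17 (-0.28 to -0.05), and it was zoned in the same direction, at -0.53 and -0.90 for PC over PP. Colec12 was at 0.64 (0.52 to 0.75) and Scara5, a ferritin receptor, was the highest at 0.71 (0.55 to 0.87). Among 11 other uptake receptors, of which 10 were compared, 4 were higher and 1 lower by their intervals, against 46.4% and 12.9% of all genes. They ran from Cd36 at -0.63 (-0.70 to -0.56) to Scarb1 at 0.25 (0.20 to 0.29). The 12 macrophage transcription factors had a median of 0.14, close to that of all genes, with 9 higher and 2 lower, against the same shares of all genes. Spic was their lowest. Of the ligands of Csf1r, Csf1 was lower at -1.02 (-1.66 to -0.41) from only 33 and 74 UMIs, and Il34 was at -0.10 (-0.38 to 0.17).

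Markers of other cells moved between the sections as well, and their part in the results above was not tested. Of 6 neutrophil genes, 3 reached 1 CPM and were lower, S100a9 at -2.63 (-3.01 to -2.28), S100a8 at -2.58 and Csf3r at -0.40, and the list summed to 5.81 against 19.0 CPM, mostly through S100a8 and S100a9. The others had few UMIs, with 43 and 36 for Mmp9, 10 and 9 for Cxcr2, and 0 and 3 for Ly6g, and their differences were within counting error. B cell genes were lower in 4 of 4, from Ms4a1 at -1.30 to Igkc at -0.60, and T cell genes higher in 4 of 4, from Trbc1 at 0.62 to Trbc2 at 1.14, with sums of 29.0 against 47.4 CPM and 14.1 against 7.15 CPM. Red blood cell genes were lower in 4 of 4, from Hbb-bt at -1.20 to Hba-a2 at -0.15, both of a family of near-identical copies, with sums of 1017 against 1213 CPM. By their intervals, 12.9% of all genes compared were lower and 46.4% higher. Of 11 genes of monocytes and recruited macrophages 4 reached 1 CPM, from Cd9 at -0.38 (-0.50 to -0.26) to Ccr2, the chemokine receptor of monocytes, at 0.52 (0.20 to 0.85), and the list summed to 130.8 against 118.5 CPM. Of these sums Spp1 made up 67.1 and 56.9 CPM. As Spp1 is also in the cholangiocyte list, the sums do not measure recruited macrophages alone. The median was -0.03 for 8 genes of sinusoidal endothelium, from Lyve1 at -0.84 to Fcgr2b at 0.12, -0.06 for 6 genes of stellate cells, from Rgs5 at -0.48 to Ecm1 at 0.13, and 0.24 for 5 genes of cholangiocytes, from Sox9 at -0.91 to Krt19 at 0.31. Endothelial genes were zoned the other way from the KC genes, with a median of 0.25 for PC over PP in both sections.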

How the data were processed

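ST was performed by the authors on 1 AEG-1ΔMAC and 1 AEG-1fl/fl liver section. Per the labels, reads were processed with Space Ranger 2.0.1 against mm10, and the deposited values are raw counts of UMIs per gene and spot, with no normalisation. In the study's filter, followed here, spots with more than 50000 UMIs, under 100 genes or over 7000 genes were removed (9 of 2149 and 3 of 2543). The study gives 2149 and 2543 spots as the numbers after this filter, whereas here they are the numbers before it. UMIs were summed per section and scaled to CPM, with exact Poisson intervals; log2 ratios of CPM have exact conditional binomial intervals and shares exact binomial (Clopper-Pearson) intervals, all at 95%. Depth is the section total, so 1 CPM is 45 UMIs in the AEG-1ΔMAC section and 50 in the other, and intervals cover counting error only. No p-value was computed. Thinning drew 10000 UMIs per spot without replacement. Zone parts are equal parts, 3 per section, of spots ranked by scaled zone 3 markers (Cyp2e1, Cyp1a2 and Oat) minus zone 1 markers (Arg1, Cyp2f2, Gls2, Hal, Hsd17b13 and Pck1). Clusters were not built and doublet calling does not apply to spots.

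The members and lists were chosen with earlier results of these data known. The text names all members, the highest and lowest gene of each list at a mean of 1 CPM or more, the 5 genes most like Marco in each section among those with at least 20 CPM, and Fabp5 and Lyz2. Of the genes selected in this way 1, and of the promoter motifs searched 1, are not reported here. The C1q genes, C6, Msr1, Colec12, Il34 and Spp1 were named after their values were seen. Folr2, Ly6c2, Hba-a1 and Glul were not analysed here. Coordinates are from GENCODE M21 (GRCm38, the assembly of mm10), matched by Ensembl identifier. The calculations were run with Python 3.11.15, numpy 2.4.6, scipy 1.17.1 and pandas 2.3.3, and TMM factors with edgeR 4.0.16, and were tested on simulated data.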

Additional observations from a re-analysis of the deposited data

How the results depend on the processing

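No paired analysis was possible because each genotype has 1 library, and for the same reason no library could be left out, so the spread between mice is unknown and depth limits only the counting error. Of 49 alternative values for the main results, 34 stayed within the counting error (for counts of genes, within 1.5 times) and 15 did not. For correlations the limit was instead a spread that treats spots as independent, which neighbouring spots are not. The values that stayed include the counts of members at least 2-fold lower and higher, 1 and 1 under every setting. The members' median turned from -0.01 to 0.06 at a minimum of 10 CPM, which left out Adgre1 and Spic. The band used for this median, -0.13 to 0.11, includes 0. It was built from the median margin of the single genes' intervals and is not an interval of the median itself. Marco was at -1.52 when the total left out the 50 genes with most UMIs, and the members' median was -0.14 with TMM factors. With a minimum of 10 CPM, 36 genes were at least 2-fold lower and 88 higher, at 1.5-fold 437 and 590, and relative to the median of all genes 230 and 141, against 173 and 194. The share of these genes that were higher was 52.9%, and 71.0% at 10 CPM, 38.0% relative to the median of all genes and 57.4% at 1.5-fold. Marco was found in 6.25% and 14.3% of AEG-1ΔMAC and AEG-1fl/fl spots at 5000 UMIs, and in 21.8% and 44.5% unthinned. Its zonation was -1.90 in AEG-1ΔMAC between the outer 10% of spots at each end, and -1.17 in AEG-1fl/fl with landmark genes in the index. Marco with Clec4f had a Pearson correlation of 0.17 and 0.22 on log-normalised unthinned values, and in AEG-1fl/fl a Spearman correlation of 0.062 at 5000 UMIs. The cause of these shifts was not tested. The equal mix of zone parts and KC UMIs, and zone ratios relative to the median of all genes, were chosen after seeing the data.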

Other observations

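Several genes of recruited or lipid-associated macrophages were below the minimum of 1 CPM and were looked at after their values were seen. Gpnmb, a glycoprotein of lipid-laden macrophages, had 20 UMIs in the AEG-1ΔMAC section against 6 UMIs in AEG-1fl/fl, giving a log2 ratio of 1.88 (0.52 to 3.49). Itgax, the integrin CD11c, had 50 and 29 UMIs (0.93, 0.24 to 1.65), whereas Itgam, the integrin CD11b of neutrophils and monocytes, had 31 and 63 UMIs (-0.88, -1.55 to -0.23). Trem2, a lipid receptor of lipid-laden macrophages, had 23 and 19 UMIs (0.42, -0.52 to 1.38), and Cx3cr1 had 32 and 33 UMIs (0.10, -0.65 to 0.85), so for Trem2 and Cx3cr1 no difference was detectable at this depth.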
